A study of Homo sapiens with 62 samples.

Results

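The genes of RNA polymerase II (Pol II) subunits and of the Mediator complex were followed in 2 human pancreatic ductal adenocarcinoma lines. They were chosen by name, as POLR2A to POLR2M, the numbered MED genes, CDK8, CDK19 and CCNC. Of 46 such names in the tables, 45 had a mean of at least 50 reads in the DMSO 4 h libraries of both lines, of 11565 genes at that minimum and 29794 in all. The 45 genes comprised 13 of Pol II and 32 of Mediator. MED12L was left out: it had 0 reads in every AsPC-1 DMSO 4 h library and 43 to 158 (mean 87.75) in those of T3M-4. The members nearest to the minimum were MED9, with a mean of 212.4 reads in AsPC-1, and MED30, with 390.25 in T3M-4.

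Pol II makes messenger RNA. Its catalytic centre is formed by the products of POLR2A and POLR2B, other subunits form the assembly platform and the stalk, and POLR2E, POLR2F, POLR2H, POLR2K and POLR2L are also parts of Pol I and Pol III. Mediator relays signals from transcription factors to Pol II. Its head (MED6, MED8, MED11, MED17, MED18, MED20, MED22) and middle contact the polymerase, MED14 is the scaffold that joins the modules, the tail binds activators, and a separable kinase module (CDK8 or CDK19, cyclin C from CCNC, MED12, MED13 or MED13L) regulates the core complex. The kinase CDK9 phosphorylates paused Pol II and its partners and so releases it into the gene body.

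New RNA had been marked by SLAM-seq, in which 4-thiouridine (4sU) enters new RNA and alkylation turns it into T>C conversions in the reads. Cells were labelled for 2 h in 62 libraries of AsPC-1, a model of the classical subtype, and T3M-4, a model of the basal-like subtype. All groups, controls included, carried the genotype FKBP12-F36V-FLAG-KLF5 with the endogenous KLF5 gene knocked out, as selected populations from lentiviral delivery that are not described as single clones, so no group has unmodified KLF5. The AsPC-1 groups were 10 libraries each with dTAGv-1, a degrader of the tagged KLF5, and with its inactive analog dTAGv-1-NEG, 5 each with CB-6644, which blocks the ATPase activity of RUVBL1/2, and with DMSO, and 4 with the CDK9 inhibitor NVP-2, all at 4 h, plus 4 each with CB-6644 and DMSO at 12 h. T3M-4 had 4 libraries of each of these 5 treatments at 4 h. Libraries are numbered by experiment and replicate as in the labels, so that 2.1 is the first of experiment 2. The study calls the replicates of a condition biological, in legends that name dTAG, NEG, CB-6644, NVP-2 and DMSO at 4 h. Which of the NVP-2 libraries are separate biological replicates was not stated. For the 12 h groups no such statement was found in the sources used here. Their p-values measure the spread between libraries, which may be technical.

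All reads per library ran from 82676553 to 244524608 over the 61 libraries with a usable column. T>C reads ran from 8296433 to 27982537 without NVP-2 and from 2240998 to 4982006 with it, so the values after NVP-2 rest on fewer reads. The all-reads column of AsPC-1 dTAG library 3.1 held the T>C values of another library, and results that need all reads use 9 dTAG libraries. In AsPC-1 the 4 NVP-2 libraries belong to batch 2 of the labels and the 5 DMSO 4 h libraries to batch 1, so that NVP-2 and batch cannot be told apart in that comparison. In DMSO the lines matched their labels: TP63 and KRT5 had at most 0.121 and 0.08926 RPM (reads scaled to an equal library size, as summed over genes) in AsPC-1 and at least 18.27 and 104.7 in T3M-4, HNF4A had at least 12.38 in AsPC-1 and at most 0.4744 in T3M-4, and the leukocyte gene PTPRC had at most 0.125 in either. COL1A1, a fibroblast collagen, had 5.953 to 8.79 in T3M-4 and at most 0.03629 in AsPC-1; its part in the results was not tested. In these bulk samples fewer cells of a type and less RNA per cell cannot be told apart.

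Of the 45 genes, 33 had a promoter sequence in RefSeq (GRCh38.p14), given as 250 bases before the start and 50 after it. Short motifs were searched on both strands, except the NRF1 core, which was searched on the strand of the gene only. The KLF box CACCC was in 15 of 33 members (45.45%) and 59.87% of all 35116 promoters. The GC box GGGCGG was in 22 (66.67%, against 44.95%), and the ETS core CCGGAAG in 11 (33.33%, against 10.26%). The share among promoters of genes at the read minimum was 63.17% for the KLF box, 71.3% for the GC box and 21.01% for the ETS core, so the members were below, near and above those shares without a test. TATAAA was in 3 (9.091%, against 11.53% of all promoters and 5.251% of those at the read minimum). The NRF1 core GCGCATGC was in 2 (6.061%, against 2.19% and 4.183%). Below are the 250 bases before the start of the pair of genes with the lowest fold change of T>C reads after NVP-2 in both lines (MED7, MED18) and of the pair higher than other genes in both lines (CDK8, MED27), 5′ to 3′ on the strand of the gene. Capitals mark KLF boxes and ETS cores, in either orientation.
MED7 (chr5:157142866-157143115, minus strand): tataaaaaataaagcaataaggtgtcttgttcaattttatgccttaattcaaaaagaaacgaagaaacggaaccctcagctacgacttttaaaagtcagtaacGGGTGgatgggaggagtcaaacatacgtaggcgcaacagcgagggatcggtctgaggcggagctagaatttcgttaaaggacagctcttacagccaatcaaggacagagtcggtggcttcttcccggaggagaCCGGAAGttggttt
MED18 (chr1:28328790-28329039, plus strand): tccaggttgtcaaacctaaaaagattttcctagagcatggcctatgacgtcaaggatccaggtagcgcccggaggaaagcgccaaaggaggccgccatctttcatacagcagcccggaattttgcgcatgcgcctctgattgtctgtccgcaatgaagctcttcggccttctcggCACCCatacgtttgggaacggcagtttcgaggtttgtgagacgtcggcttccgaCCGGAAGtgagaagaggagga
CDK8 (chr13:26253879-26254128, plus strand): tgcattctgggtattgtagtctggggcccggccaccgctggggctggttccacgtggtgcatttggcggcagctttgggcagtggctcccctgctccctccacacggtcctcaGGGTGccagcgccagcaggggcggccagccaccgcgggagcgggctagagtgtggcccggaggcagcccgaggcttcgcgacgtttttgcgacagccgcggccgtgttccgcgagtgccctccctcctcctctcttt
MED27 (chr9:132079868-132080117, minus strand): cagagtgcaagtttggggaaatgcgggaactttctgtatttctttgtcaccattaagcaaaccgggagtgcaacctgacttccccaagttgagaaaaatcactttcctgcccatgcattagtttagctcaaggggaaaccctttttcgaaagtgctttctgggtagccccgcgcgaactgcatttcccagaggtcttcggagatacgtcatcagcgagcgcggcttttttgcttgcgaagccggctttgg
MED7 and MED18 each held 1 KLF box and 1 ETS core, MED18 also 1 NRF1 core, CDK8 1 KLF box and 1 GC box, and MED27 none of these. MED7 also held 1 TATAAA match, at the 5′ end of the stretch shown, far from the start. A match in this window is no evidence of binding.

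The share of a gene's reads with T>C conversions, called the labelled share here, is higher for RNA that turns over faster. In DMSO at 4 h the mean shares of the 45 genes spanned 2.36% to 53.7% in AsPC-1 (median 18.2%, against 15.4% over the 11565 genes) and 3.09% to 68.5% in T3M-4 (median 18.8%, against 17.4%). Mediator genes had a median of 23.2% in AsPC-1 and 24.0% in T3M-4, and Pol II genes 10.6% and 12.5%. The 95% Wilson interval of 1 library's share had a median half-width of 1.60 percentage points in AsPC-1 and 1.33 in T3M-4, which covers counting error only.

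The highest shares were those of MED17, a head subunit, MED26, a middle subunit that binds elongation factors, and MED9, also of the middle. MED17 had 61.7, 57.0, 54.1, 45.04 and 50.6% in the AsPC-1 libraries and 60.8, 66.4, 53.4 and 54.0% in those of T3M-4. MED26 had 46.8, 53.9, 40.9, 50.3 and 47.2% in AsPC-1 and 67.5, 63.2, 77.5 and 65.9% in T3M-4. In AsPC-1 the ranges of MED17, MED26 and MED9 overlapped, so their order is not resolved. The reads of MED17 and MED26 overlap another annotated gene on the same strand, which the counts cannot separate. The lowest shares in AsPC-1 were those of POLR2I, a small core subunit, and POLR2L, shared with Pol I and Pol III, with means of 2.36% ± 0.631 (SD, n = 5) and 2.37% ± 0.456 in AsPC-1 and 4.404% ± 0.525 (n = 4) and 4.48% ± 0.252 in T3M-4. In T3M-4 the lowest were MED16 and POLR2E. POLR2E had 4.15% ± 0.181 in AsPC-1 and 3.91% ± 1.01 in T3M-4. MED16, of the tail, had 3.49% ± 2.71 in AsPC-1, with 0 T>C reads in 1 library, and 3.09% ± 0.597 in T3M-4. Every T>C count of MED16 was a multiple of 2, a sign of repeated counting, so its counting error is larger than the counts imply.

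The catalytic subunits lay near the middle of the members. POLR2A had 15.1% ± 2.17 in AsPC-1 and 14.9% ± 3.75 in T3M-4, and POLR2B 19.0% ± 0.746 and 19.3% ± 5.46. The annotated 3′UTR of POLR2A in GENCODE v44 is 3 bases (chr17:7514177-7514179, GRCh38), so the stretch over which its reads were counted is uncertain. MED14, the scaffold, had 14.9% ± 2.84 and 13.4% ± 2.81, and MED1, a middle subunit that binds nuclear receptors, 23.2% ± 3.52 and 33.7% ± 3.52. Within the kinase module the shares ran from MED12, at 9.22% ± 2.99 in AsPC-1 and 13.7% ± 5.34 in T3M-4, to MED13, at 36.7% ± 3.23 and 38.01% ± 3.22, with CDK8 at 25.01% ± 3.46 and 34.9% ± 4.49. CCNC had 16.2% ± 1.56 and 14.4% ± 2.60, and CDK19 14.5% ± 2.43 and 15.4% ± 3.25.

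**Figure D1:**
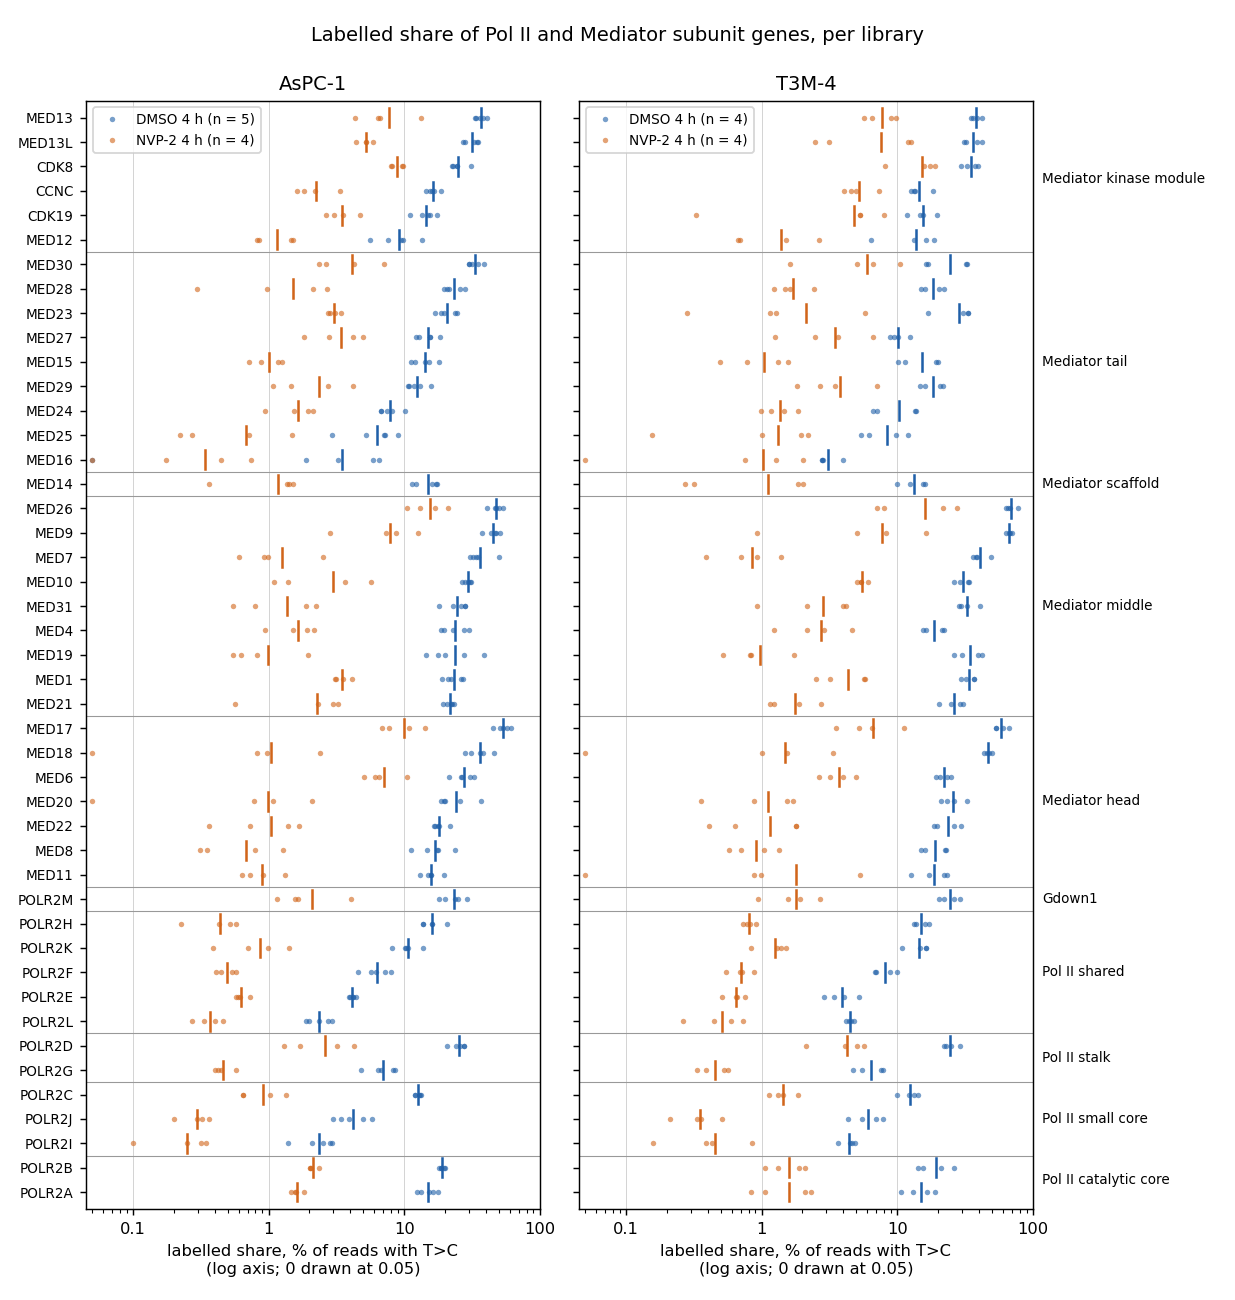
Labelled share (percentage of reads with T>C) of each of the 45 genes by module, in DMSO 4 h libraries (blue; n = 5 in AsPC-1 and 4 in T3M-4) and NVP-2 4 h libraries (orange; n = 4) on a log axis; points are libraries and bars are group means. In DMSO MED17, MED26 and MED9 stand highest in both lines and POLR2I and POLR2L are among the lowest, and the NVP-2 points lie to the left of the DMSO points for every gene but MED16 in AsPC-1.

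The lines differed in the levels of some of these genes, as they did for many other genes. Among all reads in DMSO at 4 h, 17 members were higher in T3M-4 (30.5% of all genes tested) and 4 lower (25.2%), in edgeR's quasi-likelihood test with Benjamini-Hochberg adjusted p under 0.05, the call used throughout. Those lower in T3M-4 included both Mediator kinases. CDK8 had 11.3, 9.975, 11.9 and 12.1 RPM in the T3M-4 libraries and 40.8, 51.0, 40.6, 36.8 and 29.8 in those of AsPC-1 (log2 difference -1.91, SE 0.17, adjusted p = 6e-06). CDK19 had 2.51, 4.19, 4.49 and 3.64 against 23.4, 18.7, 11.7, 20.1 and 16.9 (-2.38, SE 0.24, adjusted p = 1.9e-05). The levels of the lines did not overlap for either kinase. MED12 (-1.21, SE 0.19) and MED29 of the tail (-0.78, SE 0.17) were the others. POLR2F was higher, with 122.6, 292, 355 and 332 RPM in T3M-4 against 71.6, 69.2, 43.3, 72.7 and 65.2 (2.01, SE 0.29, adjusted p = 0.00017), and so was MED27 of the tail, with 43.9, 33.4, 36.5 and 35.9 against 7.28, 12.4, 7.34, 11.3 and 9.98 (1.86, SE 0.18, adjusted p = 1.3e-05). The labelled share was higher in T3M-4 for 6 members (14.6% of genes) and lower for 0 (1.35%): MED9, MED26, POLR2I, POLR2L, MED1 and CDK8, by 1.31 to 0.69 on the log2-odds scale (limma, adjusted p = 0.003 to 0.039). The call for CDK8 was lost when any of 7 single libraries was left out, with an adjusted p of up to 0.108, and that of MED1 for 4. Within batch 1 alone, which holds all AsPC-1 DMSO 4 h libraries and 2 of T3M-4, 12 members differed in share (22.7% of genes in that fit).

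The labelled share was lower after NVP-2 for nearly all genes. The share fell in 45 of 45 members in AsPC-1 (94.8% of all genes tested) and 44 of 45 in T3M-4 (91.1%), the exception by the test being MED16. The median share of the members was 1.52% in AsPC-1 after NVP-2, against 18.2% in DMSO, and 1.58% against 18.8% in T3M-4, and their NVP-2 libraries lay below every DMSO library for 44 and 45 of the 45 members (89.8% and 89.9% of all genes at the read minimum). The median member kept 10.5% of its DMSO share in AsPC-1 and 10.6% in T3M-4, against 12.0% and 12.4% over all genes, so the members as a set were close to other genes.

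The shares kept by each module are given without a test. The kinase module kept a median of 18.7% of its DMSO share in AsPC-1 and 26.0% in T3M-4, and the head 5.68% and 4.93%. CDK8 kept the most of all members, 35.6% and 43.4%: its share was 9.68, 9.81, 8.10 and 8.001% in the AsPC-1 NVP-2 libraries, and 8.16, 15.9, 17.6 and 19.0% in those of T3M-4. POLR2H kept 2.72% in AsPC-1 and 5.39% in T3M-4, MED18 2.90% and 3.15%, and MED7 3.44% and 2.102%. POLR2A kept 10.7% and 10.6%, close to the median gene.

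Counts of T>C reads were then compared with those of other genes in the same libraries, since no spike-in sets an absolute scale. The values below are therefore relative: scaled by all reads, the median of all genes tested was -3.26 on the log2 scale in AsPC-1, and on that scale all 45 members were lower. The same scaling put the median T>C change of the members at -3.81. In T3M-4, where the median of all genes tested was -3.09 on that scale, it gave 43 members lower, all but CDK19 and MED16. The share of all genes called lower on that scale is not given here, so these counts are not results about the members.

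The genes lower than others in both lines were MED18 and MED8 of the head, MED7, MED9 and MED19 of the middle, and POLR2H. Of the 45 members, 11 were called lower in AsPC-1 (17.6% of genes tested) and 7 in T3M-4 (14.2%), with 6 in both, which is 54.5% of the first list and 85.7% of the second. By module, 4 of 7 head genes and 6 of 9 middle genes were lower in AsPC-1, and 3 of each in T3M-4, while no tail or kinase module gene was. MED18, which with MED20 forms the movable jaw of the head, had 0, 0.824, 0.813 and 2.21 CPM (T>C counts scaled to the TMM library size) after NVP-2 in AsPC-1 against 23.3, 15.95, 14.5, 12.4 and 16.3 in DMSO. These are 0, 2, 2 and 4 reads, and over the 4 libraries 8 of 821 reads of MED18 were labelled (0.974%, exact 95% interval 0.422 to 1.91). In T3M-4 it had 1.58, 3.32, 0 and 1.51 CPM against 34.7, 36.1, 25.9 and 25.2. The groups did not overlap in either line (log2 fold change -4.19, SE 0.62, adjusted p = 0.00064 in AsPC-1; -4.17, SE 0.68, adjusted p = 0.0018 in T3M-4). In batch 2 of T3M-4 alone, with 2 libraries per group, MED18 had an adjusted p of 0.0542.

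MED7, a middle subunit, had 1.13, 2.47, 2.03 and 5.51 CPM against 27.5, 13.3, 22.0, 14.4 and 20.2 in AsPC-1 (log2 fold change -2.85, SE 0.48), and 1.58, 1.45, 0.670 and 1.13 against 18.3, 16.5, 12.9 and 12.4 in T3M-4 (-3.60, SE 0.49). MED8, which tethers the jaw to the rest of the head, had 5.29, 1.65, 3.25 and 6.62 CPM against 27.7, 18.6, 37.2, 16.3 and 24.5 in AsPC-1 (-2.58, SE 0.44) and 16.3, 10.8, 10.7 and 6.81 against 45.3, 43.3, 32.1 and 39.8 in T3M-4 (-1.84, SE 0.35). For both genes every NVP-2 library lay below every DMSO library, and adjusted p-values in edgeR ranged from 0.00081 to 0.0041. These calls remained in every alternative run, including the comparison with batch 2 controls in AsPC-1, where MED7 was -2.44 against the NEG libraries of experiment 3 and -2.78 against DMSO at 12 h. POLR2H, a subunit shared by the 3 polymerases, had 25.7, 34.2, 48.8 and 20.9 CPM against 104, 137, 144, 116 and 122 in AsPC-1 (-1.94, SE 0.28, adjusted p = 0.00049). In T3M-4 it had 58.1, 46.9, 115 and 101 against 151, 145, 197 and 176 (-1.06, SE 0.33, adjusted p = 0.036). That call was lost in batch 2 alone and without any of 6 single libraries (NVP-2 1.1 or 1.2, or any DMSO library), with an adjusted p of up to 0.0991. MED19 (-1.50, SE 0.52, in AsPC-1 and -2.23, SE 0.42, in T3M-4) and MED9 (-1.73, SE 0.49, and -2.47, SE 0.72) were also lower in both. The MED19 call in AsPC-1 was lost without any of 7 of the 9 libraries (all but NVP-2 1.2 and DMSO 1.3). The MED9 call in T3M-4 was lost without DMSO 2.1 or 2.2 and in batch 1 alone, with an adjusted p of up to 0.169. MED17 was lower in T3M-4 (-1.22, SE 0.29, adjusted p = 0.011) and had -0.62 (SE 0.23, adjusted p = 0.054) in AsPC-1. In batch 1 of T3M-4 alone MED17 had an adjusted p of 0.0576. MED4, MED10, MED11, MED22 and MED31 were called lower in AsPC-1, with values of -1.08 to -1.89. The calls of MED4 and MED10 were each lost without any of 7 of the 9 libraries (MED4 all but NVP-2 1.1 and 2.1, MED10 all but NVP-2 1.1 and 1.2) and against both batch 2 controls, with adjusted p-values of up to 0.136 and 0.158. The MED11 call was lost without DMSO 1.3 and against both batch 2 controls (adjusted p up to 0.382), that of MED31 against DMSO at 12 h (0.228), and that of MED22 without DMSO 1.2.

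**Figure D2:**
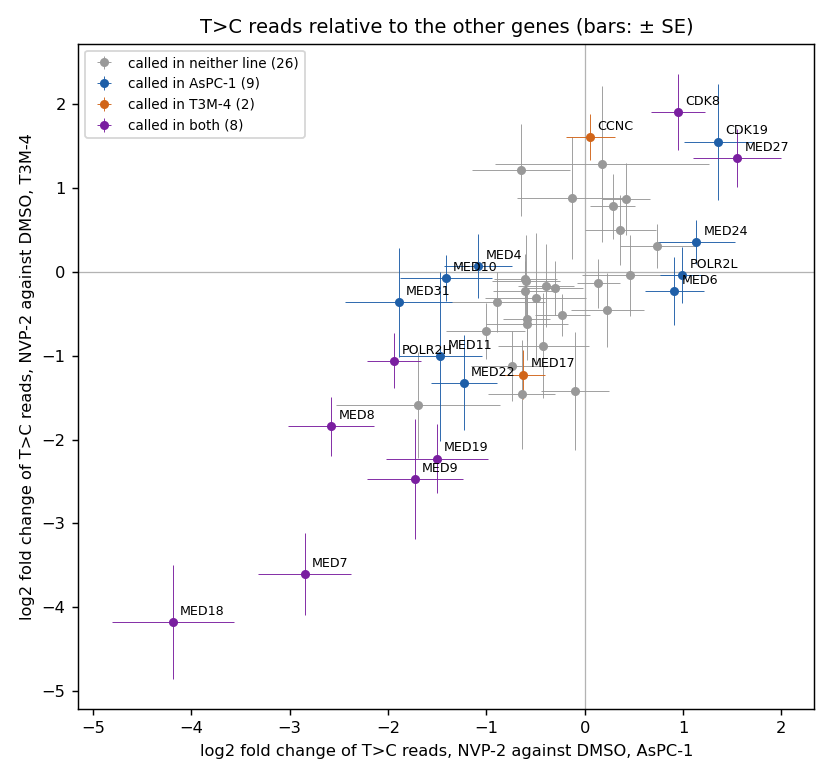
Log2 fold change of T>C reads (NVP-2 against DMSO, relative to other genes) of the 45 genes in AsPC-1 (horizontal axis) and T3M-4 (vertical axis), with bars of 1 SE; colours mark calls; scaled by all reads the points at the upper right also fall. MED18 and MED7 lie at the lower left, and CDK8 and MED27 at the upper right.

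Fewer members were higher than other genes: 6 in AsPC-1 (12.9% of genes tested) and 3 in T3M-4 (12.4%), with CDK8 and MED27 in both, 33.3% of the first list and 66.7% of the second. The kinase module gave 2 of its 6 genes in each line, and the tail 2 of its 9 in AsPC-1 and 1 in T3M-4. On the all-reads scale all of them fell, CDK8 to -2.29 in AsPC-1 and -1.29 in T3M-4 and MED27 to -1.73 and -1.50, less than the median gene. CDK8, a Mediator kinase, had 168, 80.0, 205 and 192 CPM after NVP-2 against 104, 91.3, 81.4, 77.3 and 63.0 in AsPC-1 (0.95, SE 0.28, adjusted p = 0.023), and 36.8, 65.2, 184 and 108 against 24.96, 22.3, 29.9 and 27.8 in T3M-4 (1.91, SE 0.45, adjusted p = 0.011). The AsPC-1 groups overlapped through NVP-2 library 1.2, and the call was lost without NVP-2 2.1, NVP-2 2.2 or DMSO 2.2, with an adjusted p of up to 0.0619; in T3M-4 CDK8 had an adjusted p of 0.060 in batch 1 alone. MED27, a tail subunit, had 9.44, 44.1, 37.4 and 55.1 CPM against 9.26, 17.0, 7.40, 16.4 and 11.9 in AsPC-1 (1.55, SE 0.45) and 71.8, 98.4, 38.2 and 52.6 against 30.2, 18.8, 28.1 and 24.7 in T3M-4 (1.36, SE 0.35). Its groups overlapped in AsPC-1 through library 1.1 and not in T3M-4. The MED27 call in AsPC-1 was lost without NVP-2 1.2 or 2.2 and against both controls of batch 2, at 0.95 and 0.98, and in T3M-4 without DMSO 1.2 and in batch 2 alone (0.82, adjusted p = 0.166).

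CCNC, which encodes cyclin C, the partner of CDK8 and CDK19, was called higher in T3M-4 and not in AsPC-1. It had 126, 219, 197 and 168 CPM after NVP-2 there against 69.9, 52.2, 51.3 and 59.4 (1.61, SE 0.27, adjusted p = 0.0022), with no overlap, and 83.8, 46.2, 70.3 and 43.6 against 58.8, 51.9, 60.0, 56.2 and 66.2 in AsPC-1 (0.06, SE 0.25). On the all-reads scale CCNC fell in T3M-4, by 1.39. The difference between the lines was 1.53 (SE 0.36), with an adjusted p of 0.0511 in edgeR's interaction test and 0.00052 in DESeq2. Scaled by all reads it was 1.73 (SE 0.50), with an adjusted p of 0.117 in edgeR. Without that scaling no member passed edgeR's interaction test (0 of 45, beside 0.851% of genes), with 6 at an unadjusted p under 0.05. DESeq2 called 1, CCNC. The other kinase, CDK19, was higher in AsPC-1 (1.36, SE 0.34, adjusted p = 0.012) and had 1.55 (SE 0.69, adjusted p = 0.12) in T3M-4, where its library 2.2 held 3 T>C reads. Every T>C count of CDK19 in T3M-4 was a multiple of 3, a sign of repeated counting, so its counting error there is larger than the counts imply. POLR2L, MED6 and MED24 were called higher in AsPC-1 at 0.99, 0.91 and 1.13. The POLR2L call was lost against both batch 2 controls, at 0.51 and 0.50, that of MED24 against both as well, with an adjusted p of up to 0.357, and that of MED6 against DMSO at 12 h (0.0592). The calls of MED6 and MED24 were each also lost without any of 6 single libraries. The catalytic subunits were not called in either line: POLR2A had -0.30 (SE 0.29) in AsPC-1 and -0.19 (SE 0.33) in T3M-4, and POLR2B -0.23 (SE 0.28) and -0.51 (SE 0.25). Without NVP-2 library 2.2 or without DMSO library 2.2 the AsPC-1 count of 17 members became 11, and with DMSO at 12 h as the control it became 9.

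The T>C fold changes after NVP-2 went with gene length, as a description chosen after the values were seen. The 5 members over 100 kb, namely MED13L, MED27, CDK19, CDK8 and MED13, all had T>C fold changes above 0 relative to other genes in both lines, with values of 0.29 to 1.55 in AsPC-1 (median 0.95) and 0.31 to 1.91 in T3M-4 (median 1.36). All tested genes over 100 kb had medians of 0.37 and 0.41. The other 40 members had medians of -0.60 and -0.36, against -0.17 and -0.28 for all tested genes of 100 kb or less. Across the 45 members, the fold change and log10 gene length had Pearson r of 0.42 in AsPC-1 and 0.33 in T3M-4 (rho 0.38 and 0.26), against 0.17 and 0.18 over all genes. Genes share libraries and are not independent replicates, so no p is given. On the all-reads scale the fitted values of these genes were below 0, in T3M-4 without a call for CDK19.

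**Figure D3:**
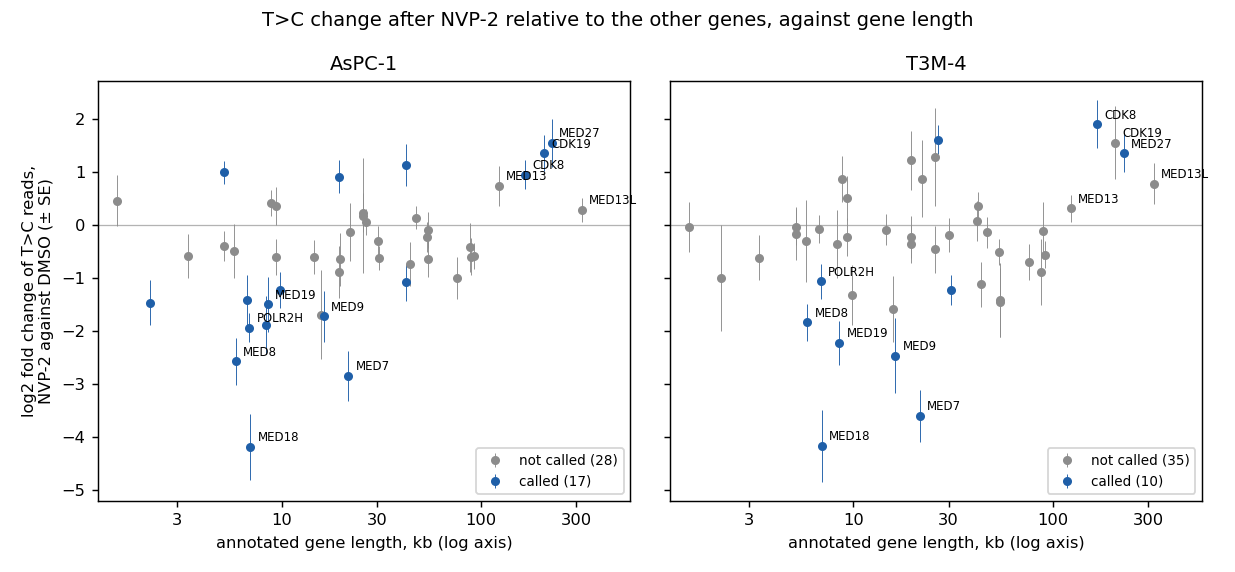
Log2 fold change of T>C reads after NVP-2 (relative to other genes) against gene length in kb (log axis) for the 45 genes in each line. The 5 genes over 100 kb lie above 0 in both lines on this relative scale, and MED18 and MED7 lie lowest.

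All reads include RNA made before the drug. Among them MED9, MED17, MED18 and MED26 were called lower after NVP-2 in both lines, which is 4 of 6 in AsPC-1 and 4 of 4 in T3M-4, where the background of lower calls was 8.39% and 4.91% of genes tested. None was called higher (3.43% and 0.243%); 2 members in AsPC-1 and 0 in T3M-4 had an unadjusted p under 0.05 in that direction, and DESeq2 called 2 in AsPC-1. MED18 had 1.27, 1.16, 1.33 and 1.08 CPM of all reads against 6.93, 4.12, 5.58, 4.42 and 4.55 in AsPC-1 (-2.08, SE 0.23, adjusted p = 0.00039), and 3.41, 2.61, 0.657 and 1.61 against 11.2, 12.2, 7.05 and 7.23 in T3M-4 (-2.18, SE 0.46, adjusted p = 0.024). MED26 had 0.948, 0.627, 0.625 and 0.673 against 3.33, 2.49, 3.54, 2.75 and 2.61 in AsPC-1 (-2.03, SE 0.25), and 1.16, 0.994, 0.259 and 0.391 against 5.16, 4.51, 2.69 and 3.29 in T3M-4 (-2.48, SE 0.48). MED9 had 0.256, 0.353, 0.505 and 0.459 against 1.66, 1.82, 2.09, 1.73 and 1.71 in AsPC-1 (-2.19, SE 0.30), and 0.492, 0.597, 0.546 and 0.521 against 1.81, 1.91, 3.25 and 2.52 in T3M-4 (-2.14, SE 0.25). The groups of all 3 genes were separate in both lines. MED17 had -1.15 (SE 0.22) and -0.89 (SE 0.21), and MED7 and MED10 were also called in AsPC-1, at -0.98 and -1.19. In T3M-4 the same-numbered libraries correlated, with 2 of 4 pairs each other's best match. With the replicate block 10 members were called, 7 lower (9.77% of genes in that fit) and 3 higher (7%). MED15 (0.47), MED25 and POLR2I (0.60) were the higher ones. Single libraries set the T3M-4 count: it was 1 (MED9 alone) without NVP-2 2.2 or without DMSO 1.1, and 2 without NVP-2 1.2 or without DMSO 1.2. The call of MED17 there was lost without any of 6 libraries (all but NVP-2 1.1 and DMSO 1.2), that of MED18 without NVP-2 1.2 or 2.2 or DMSO 1.1 or 1.2, and that of MED26 without NVP-2 2.2 or DMSO 1.1 or 1.2. The MED7 call in AsPC-1 was lost without NVP-2 2.2 or DMSO 2.2, with the replicate block and against the NEG libraries of experiment 3. Its adjusted p in edgeR was up to 0.0887 in these fits. The MED10 call in AsPC-1 was lost against DMSO at 12 h (adjusted p = 0.0547 in edgeR).

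Members with a high labelled share tended to have low all-read fold changes after NVP-2. Over the 45 members the all-read fold change after NVP-2 and the labelled share in the dTAGv-1-NEG libraries, which are in neither group compared, had Pearson r = -0.81 and rho = -0.80 in AsPC-1 and -0.83 and -0.72 in T3M-4. Over all genes r was -0.69 and -0.72. MED7 and MED19 differed from each other here: MED7 had a share of 33.7% in NEG and -0.98 in AsPC-1, while MED19, with 21.9%, had 0.02 (SE 0.19) in all reads and -1.50 in T>C reads.

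**Figure D4:**
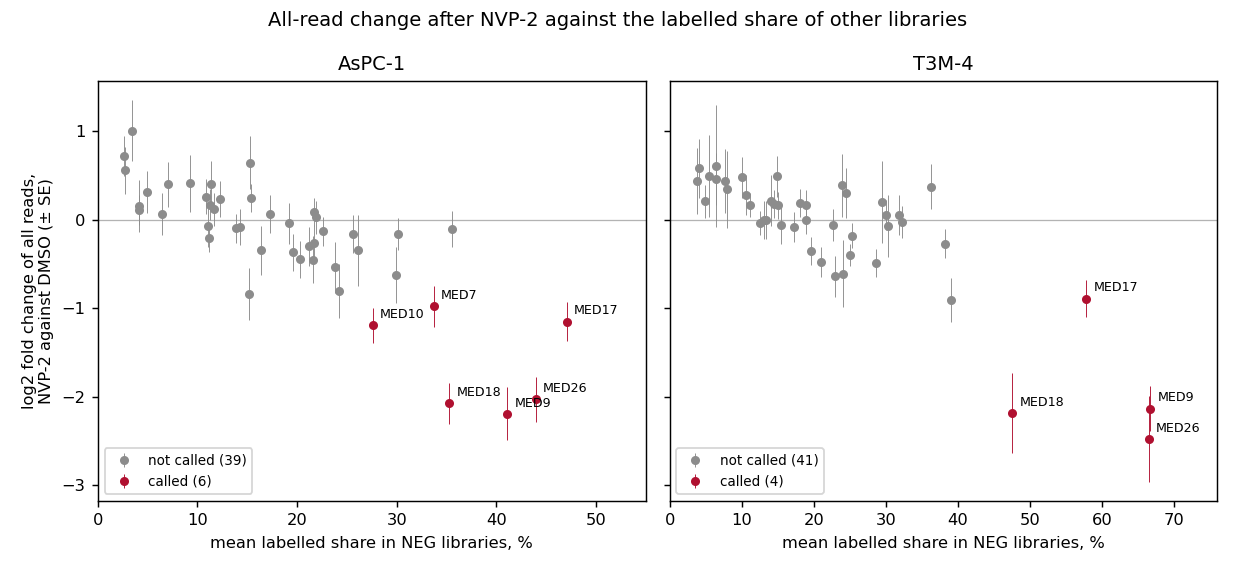
Log2 fold change of all reads after NVP-2 against the labelled share in the dTAGv-1-NEG libraries (percent) for the 45 genes in each line. MED26, MED9 and MED18 have high shares and the lowest fold changes, and MED17 has a high share with -1.15 in AsPC-1 and -0.89 in T3M-4.

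Related gene lists gave context for the T>C changes after NVP-2. Of all genes tested, 12.9% were called higher and 17.6% lower in AsPC-1, and 12.4% and 14.2% in T3M-4. The lists were not tested against these shares. Of 27 genes of general transcription factors, 4 were higher and 7 lower in AsPC-1, and 4 higher and 1 lower in T3M-4, with TAF6 higher and TAF11 lower in both and GTF2A2 lower in AsPC-1 and higher in T3M-4. Of 18 Pol I and Pol III subunit genes none was higher in either line and 7 and 4 were lower, POLR1B and POLR1C among those lower in both. Of 24 genes of pausing and elongation factors, 2 were higher and 9 lower in AsPC-1 and 2 higher and 8 lower in T3M-4. CDK9 itself and its cyclins CCNT1 and CCNT2 were lower in both, as were LARP7, MEPCE and CDC73, while NELFB and SUPT5H were higher in both. Of 12 Pol II assembly factor genes UXT was higher and PDRG1 lower in both lines, and GPN1 and URI1 were also higher in T3M-4. These directions are relative to other genes; on the all-reads scale the median gene fell, as given above.

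The RUVBL1/2 ATPases, which CB-6644 inhibits, are known to take part in the assembly of Pol II as well as in chromatin complexes. After CB-6644 no member was called in T>C reads in AsPC-1 at 4 h (0% of genes), in T3M-4 at 4 h (0%) or in AsPC-1 at 12 h (0%), with 4, 3 and 2 members at an unadjusted p under 0.05. None was called in all reads (0%, 0.0127% and 0%), with 2, 3 and 1 at an unadjusted p under 0.05. DESeq2 called 1 member at 12 h in each measure, POLR2A.

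POLR2A, the largest subunit, had the smallest T>C p of the members in T3M-4 and at 12 h in AsPC-1. At 12 h it had 132, 145, 168 and 151 CPM of T>C reads after CB-6644 against 55.9, 42.0, 55.7 and 57.2 in DMSO (log2 fold change 1.498, SE 0.18). Every treated library was above every control, yet the adjusted p was 0.116 in edgeR, and 2e-11 in DESeq2. All reads of POLR2A at 12 h were 60.2, 75.7, 70.8 and 67.8 CPM against 38.9, 27.7, 33.3 and 31.9 (1.06, SE 0.17, adjusted p = 0.43; DESeq2 2.1e-05), and its labelled share was 20.5, 18.6, 19.9 and 18.7% against 13.3, 14.5, 14.1 and 16.1% (0.51 in log2 odds, adjusted p = 0.57). At 4 h in AsPC-1 its T>C reads were 52.3, 89.8, 86.7, 96.7 and 87.3 CPM against 28.9, 46.0, 43.8, 58.3 and 61.3 (0.79, SE 0.23, adjusted p = 0.98). The groups overlapped there through CB-6644 library 1.1. In T3M-4 they were 99.02, 148, 68.3 and 64.1 against 37.1, 35.005, 64.8 and 51.9 (1.01, SE 0.31, adjusted p = 0.99), with 1.76 in batch 1 and 0.18 in batch 2. Neither 4 h value passed the threshold in DESeq2.

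The labelled share after CB-6644 fell in 1 member in AsPC-1 at 4 h (1.93% of genes were lower), MED22 of the head, and in 0 in T3M-4 (0% of genes called) and at 12 h (0.016%). At an unadjusted p under 0.05 in limma were 15, 1 and 2 members, and the share of all genes at that level is not given here. MED22 had 7.79, 12.2, 10.7, 10.0 and 10.1% against 18.0, 21.8, 17.7, 16.8 and 16.6% (-0.98, SE 0.16, adjusted p = 0.018 in limma). In AsPC-1 at 4 h, 9 members, MED22 included, had all treated libraries below the controls, and 36 overlapped. How many of all genes were separated in this way was not determined, so this count is not a result about the members. In T3M-4 MED22 had 24.2, 17.7, 19.2 and 16.1% against 29.4, 26.3, 18.6 and 19.7% (-0.35, SE 0.25), and at 12 h 15.2, 13.8, 12.5 and 14.0% against 13.9, 19.1, 13.2 and 13.0%. Its T>C counts were even numbers in most libraries, a sign of repeated counting. The median of the members in AsPC-1 at 4 h was -0.32, beside -0.27 over all genes, and the MED22 call was lost when shares were centred on the median gene and with the replicate block. The difference between the lines in the CB-6644 effect was called for 0 members (0% of genes), with 1 at an unadjusted p under 0.05.

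KLF5 is a transcription factor, and dTAGv-1 acts on its protein, which was not measured here. After dTAGv-1 the T>C reads of 0 members were called in AsPC-1 (2.4% of genes called) and 0 in T3M-4 (0.834%), with 5 and 0 at an unadjusted p under 0.05. In AsPC-1 the same-numbered libraries correlated, but only 3 of 10 pairs were each other's best match in T>C reads. With the replicate block 3 members were called (7.41% of genes in that fit): CDK8 at -0.34 (adjusted p = 0.024), MED15 of the tail at -0.39 (0.028) and CDK19 at 0.28 (0.047). With the experiment as the block in place of the library number, their adjusted p-values were 0.0868, 0.0881 and 0.484. CDK8 had 52.3 to 105 CPM after dTAGv-1 (median 74.6, n = 10) and 67.9 to 131 in NEG (median 99.9, n = 10), which overlapped. In all reads 0 members were called in AsPC-1 (0.797%) and T3M-4 (0.0191%), with 3 and 0 at an unadjusted p under 0.05; the replicate block gave 1 in AsPC-1 (3.96% of genes), CDK8 at -0.34. The difference between the lines was called for 0 members (0.0426%), with 4 at an unadjusted p under 0.05.

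The labelled share fell in 22 members in AsPC-1 after dTAGv-1, where 38.9% of all genes tested were lower, and in 0 in T3M-4 (0.247% called; 2 members at an unadjusted p under 0.05). The median of the members was -0.31, beside -0.33 over all genes, and 0 were called after centring on the median gene. POLR2H had 10.2 to 14.1% after dTAGv-1 (median 11.5%, n = 9) and 12.9 to 18.1% in NEG (median 15.1%, n = 10), a difference of -0.48 (SE 0.08, adjusted p = 0.00041). Its ranges overlapped, as those of all 45 members did (1.62% of genes at the read minimum had no overlap). POLR2B had -0.37 (SE 0.09) and POLR2M, which encodes the Pol II-associated protein Gdown1, -0.43 (SE 0.10; adjusted p = 0.004 in both). POLR2M shares reads with GCOM1 on the same strand. Within experiments 1, 2 and 3 POLR2H had -0.54, -0.45 and -0.44, and 43, 41 and 37 of 45 members were below 0. The count rested on experiment 1: it was 1 member (POLR2H) without experiment 1, 12 without experiment 2 and 21 without experiment 3.

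**Figure D5:**
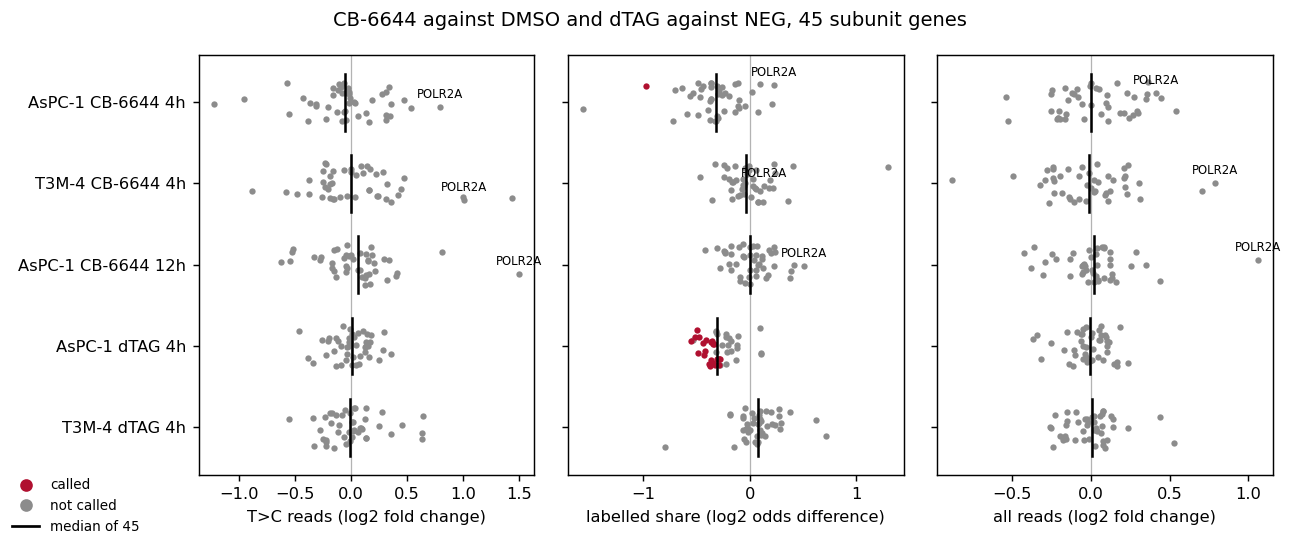
Changes of the 45 genes after CB-6644 (against DMSO) and dTAGv-1 (against NEG), as log2 fold change of T>C reads (left), log2-odds difference of labelled share (middle) and log2 fold change of all reads (right); each point is a gene, red marks called genes and black lines are medians. POLR2A is at 0.79, 1.01 and 1.498 in the CB-6644 rows on the left, and the only called genes are MED22 and the 22 of dTAGv-1 in AsPC-1, all in the middle panel.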

How the data were processed

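SLAM-seq libraries (QuantSeq 3′ end kit, single-end) were aligned and counted by the authors with slamdunk defaults on hg38, over GENCODE v44 3′UTRs summed per gene. The deposited values are raw whole-number counts of all reads and of T>C reads, in 62 libraries of 12 groups. Of the columns, 18 had no name and no value and were left out, as was the all-reads column of AsPC-1 dTAG library 3.1, which equals the T>C column of a DMSO 12 h library. No spike-in was used, and libraries without 4sU were not analysed here. Total counts per library are given with the results. Intervals of shares cover counting error only.

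T>C counts and all counts were compared with edgeR 4.0.16 (R 4.3.3; TMM, filterByExpr, quasi-likelihood test), fitted on the groups of each contrast over all genes, and interactions between lines in 1 fit of the 4 groups. Values are relative to the other genes of the library. Labelled shares were compared as log2 odds with a pseudocount of 0.5 in limma 3.58.1 (trend, robust). A call is a Benjamini-Hochberg adjusted p under 0.05 over all genes tested. The SE of an edgeR fold change is its size divided by the square root of F. CPM values use TMM library sizes. Tables and figures were made with Python 3.11.15, pandas 2.3.3 and scipy 1.17.1, and the fits were tested on simulated data. Alternatives were DESeq2 1.42.0, other filters, scaling by all reads, centring on the median gene, single batches, other control groups, a replicate block and leaving out each library.

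Library numbers were taken to pair the samples where every pair's deviations from the group means correlate above 0.1. This held for dTAG in both lines (lowest r 0.167 for T>C reads), CB-6644 in T3M-4 (0.163) and at 12 h in AsPC-1 (0.33), and NVP-2 in T3M-4 for all reads (0.189), where the numbers share batch and experiment. In T>C reads 3 of 10 dTAG pairs were each other's best match in AsPC-1 and 2 of 4 in T3M-4. So were 1 of 4 CB-6644 pairs in T3M-4 and at 12 h, and 2 of 4 NVP-2 pairs in T3M-4 (all reads). All these pairs share a batch, so a pairing by number and a shared batch cannot be told apart.

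Members and gene lists were chosen with earlier results of these data known. Genes named by role were POLR2A, POLR2B, MED1, MED12, MED13, MED14, MED26, CDK8, CDK19 and CCNC. Other genes named were up to 3 in each direction with the smallest T>C p in a contrast, the 3 highest and 3 lowest labelled shares, and genes with a close paralog or overlapping gene. The remaining called genes, the gene length limit of 100 kb and the relations across genes were chosen after the values were seen. POLR2J, CDK8 with CDK19, MED12 and MED13 have close paralogs, and MED20 and POLR2D overlap other genes on the same strand, which can split or add reads.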

Additional observations from a re-analysis of the deposited data

Results flagged for a closer look

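In 15 of 300 sets of a named member in a group of 4 to 10 libraries, 1 library's labelled share stood apart from the others by Dixon's criterion, about the 1 in 20 that chance gives. In AsPC-1 DMSO 4 h, library 1.1 was high for CDK8 (30.99%, others 22.46 to 24.5%) and MED7 (50.09%, others 30.39 to 34.83%). Among AsPC-1 dTAG libraries, 1.4 was high for POLR2H (14.14%, others 10.17 to 11.89%) and 3.2 for MED16 (5.025%, others 1.316 to 2.948%). At 12 h in AsPC-1, CB-6644 library 1 was high for CDK8 (28.97%, others 23.21 to 23.74%), DMSO library 1 low for CDK19 (6.914%, others 11.98 to 12.76%) and DMSO library 2 high for MED18 (36.03%, others 28.86 to 29.98%). After NVP-2 in AsPC-1, POLR2B was high in library 1.2 (2.365%, others 2.014 to 2.038%) and MED14 low in library 2.2 (0.3659%, others 1.367 to 1.515%).

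In T3M-4, POLR2L was high in CB-6644 library 2.2 (5.64%, others 5.064 to 5.111%). DMSO library 1.1 was high for CCNC (18.3%, others 12.61 to 13.46%) and MED16 (3.98%, others 2.771 to 2.814%). The dTAG library 2.1 was high for MED13 (41.66%, others 36.18 to 36.82%) and low for MED27 (11.64%, others 13.57 to 13.94%). NEG library 2.2 was low for CDK8 (23.12%, others 31.36 to 32.99%).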

How the results depend on the processing

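Of 123 alternatives to the member counts other than left-out libraries, 105 kept the count within 1.5 times, and the cause of the others was not tested. Counts in this section stand without the share of all genes called in each fit, so they are not results about the members. The same holds for the DESeq2 counts and for the counts at an unadjusted p under 0.05 given above. Scaling T>C reads by all reads gave 45 lower members after NVP-2 in AsPC-1 (main 17 called) and 43 in T3M-4 (main 10), and 4 after dTAGv-1 in AsPC-1 (main 0). On that scale the AsPC-1 values turned to -1.89 for CDK19, -2.29 for CDK8, -2.16 for MED24, -1.73 for MED27, -2.35 for MED6 and -2.25 for POLR2L, and the T3M-4 values to -1.39 for CCNC, -1.29 for CDK8 and -1.50 for MED27. Centring shares on the median gene gave 13 members after NVP-2 in AsPC-1 (main 45), 9 in T3M-4 (main 44), 0 after CB-6644 at 4 h (main 1), 0 after dTAGv-1 in AsPC-1 (main 22) and 10 between lines (main 6), and turned CDK8 to 1.72 and 1.83 and POLR2B in AsPC-1 to 0.046. Batch 1 alone gave 12 between lines. DMSO at 12 h as control gave 9 T>C calls after NVP-2 in AsPC-1. DESeq2 gave 1 call in T>C and 1 in all reads at 12 h of CB-6644 (main 0) and 1 in the NVP-2 interaction (main 0).

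With the replicate block, calls were 3 (T>C) and 1 (all reads) for dTAGv-1 in AsPC-1 (main 0), 10 for all reads after NVP-2 in T3M-4 (main 4), 7 for T>C reads after NVP-2 in AsPC-1 (main 17) and 0 for the AsPC-1 share under CB-6644 at 4 h. In the last pair of comparisons not every same-numbered pair correlated above 0.1 (4 of 5 CB-6644 pairs and 2 of 4 NVP-2 pairs did for T>C reads). The block changed no other count by over 1.5 times.

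Without 1 library, T>C calls after NVP-2 ranged from 11 to 17 in AsPC-1 and 8 to 13 in T3M-4, all-read calls from 5 to 9 and 1 to 5, share calls from 44 to 45 and 43 to 45, AsPC-1 share calls for CB-6644 (4 h) from 1 to 2, and line differences from 18 to 22 in all reads and 4 to 7 in share. Without 1 experiment, share calls after dTAGv-1 in AsPC-1 ranged from 1 to 21. For single genes, 348 of 409 other alternatives and 543 of 637 left-out libraries kept the call.

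After NVP-2 the T>C totals of 2240998 to 4982006 reads limit low genes: MED18 and MED7 rest on 0 to 16 T>C reads per library. Other members called lower were low too. MED9 had 3, 8, 8 and 2 T>C reads in the AsPC-1 NVP-2 libraries and 14, 1, 6 and 7 in those of T3M-4. MED8 had 14, 4, 8 and 12 in AsPC-1.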

Other observations

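MED12L, the paralog of MED12 in the kinase module, was below the read minimum in AsPC-1 and so not compared. In the 4 DMSO 4 h libraries of T3M-4 together, 132 of its reads carried T>C conversions.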
